A study of Mus musculus with 167 samples.

Results

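Lymphoid-primed multipotent progenitors (LMPPs) of mouse bone marrow were divided by whether transcripts of Il7r, the gene for the alpha chain of the interleukin-7 receptor, were found in the cell. The study measured RNA in LMPPs captured one by one on a Fluidigm C1 microfluidic chip, from wild-type female C57BL/6J mice aged 14 months or 4 months. All cells shared 1 sort, which kept lineage-negative, CD150-negative cells with CD34, c-Kit and Sca-1 on their surface and much Flk2, the protein of Flt3. Of 168 cells in the table, 130 had at least 1000 genes at 1 or more TPM (a measure of transcript abundance that corrects for length and has the same sum in every cell) and were kept. Of these, 18 had Il7r at 1 TPM or more and are called Il7r-positive, and 112 were below it and are called Il7r-negative. The groups were selected on the Il7r value, so Il7r itself is given only to describe the choice. The mean log2(TPM + 1) and SD given below are over cells. No animal is named for any cell, each age counts as 1 sample, and no test was made.

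The interleukin-7 receptor joins the Il7r chain to the common gamma chain encoded by Il2rg, and signals through the kinases Jak1 and Jak3 to Stat5. In mouse marrow it is a defining receptor of common lymphoid progenitors and of early B lineage cells, which depend on its ligand. LMPPs lie upstream of these, retain granulocyte and monocyte potential, and are known to hold cells that already transcribe lymphoid genes.

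Il7r values of the positive cells ran from 2.05 TPM through a median of 145 TPM to 1000.1 TPM. The lowest 4 were 2.05, 2.13, 9.47 and 13.2 TPM. Of the negative cells 111 had no Il7r and 1 had 0.41 TPM, so a single cell lay just under the threshold. Among the 38 columns left out for too few genes, 1 had 8.13 TPM.

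Il7r-positive cells made up 13 of 66 kept cells at 14 months, or 19.7% (exact Clopper-Pearson 95% interval 10.9 to 31.3%), and 5 of 64 at 4 months, or 7.81% (2.59 to 17.3%). These intervals overlap and cover counting error only. The 14-month columns are numbered as set 4 or set 5, and the sources used here do not explain the numbers. Set 5 held 10 positive cells of 37, or 27.0%, and set 4 held 3 of 29, or 10.3% with an interval of 2.19 to 27.4%. The set 4 share was thus nearer to the 4-month share than the set 5 share was, and age and set cannot be told apart.

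Some 14-month columns resembled each other far more than cells usually did. Over log2(TPM + 1) of the measured genes, 5 of 8385 pairs of kept cells correlated at r above 0.65, from 0.70 to 0.97, whereas the highest of all other pairs was 0.60 and their median 0.40. These pairs join 9 cells, of which 4 were Il7r-positive and 5 Il7r-negative, and 1 pair links a cell of set 4 with a cell of set 5. A positive cell of 102 TPM Il7r was paired with the negative cell of 0.41 TPM at r = 0.81. With 1 cell per pair kept, 11 of 61 cells at 14 months were positive, and with all 9 left out, 9 of 57. List medians and most genes described below are therefore also given without these 9 cells, which leaves 14 positive and 107 negative cells.

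Detection was close in the pooled groups. The median number of genes at 1 TPM or more was 3820 in Il7r-positive cells (lowest 1129, highest 5529) and 3749.5 in Il7r-negative cells (lowest 1021, highest 6848). Within ages the order differed: the medians were 3551 in positive and 3052 in negative cells at 14 months, and 3848 in positive and 3984 in negative cells at 4 months. Mitochondrial transcripts took a median of 13.3% of TPM in positive and 15.7% in negative cells. Small RNA genes took 0.484% in positive and 1.75% in negative cells. That share was lower in positive cells at both ages, with medians of 0.298% in positive and 0.656% in negative cells at 14 months, and 0.808% in positive and 2.58% in negative cells at 4 months. The part of these measures in the gene differences was not tested.

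Across genes, the difference used is the mean log2(TPM + 1) of Il7r-positive cells minus that of Il7r-negative cells. It is stated relative to its median over 8930 measured genes, which was 0.05, and is called the relative difference. A gene was called higher or lower at a relative difference of 1 or more in size. By this rule 871 genes, 9.75% of those measured, were higher in Il7r-positive cells and 479, 5.36%, were lower. Without the highly correlated cells the shares were 10.1% higher and 6.27% lower. Taken alone, the 14-month cells gave 14.1% higher and 6.88% lower, and the 4-month cells, with only 5 positive cells, 20.4% higher and 15.6% lower. Of the genes called higher at 14 months 25.2% were also called higher at 4 months, which is 17.4% of the 4-month calls. Of 114 measured genes named by rule, 10 had another call without the highly correlated cells. Of these Flt3 and Id2 were no longer called, Bcl11a, Il2rg, Notch1, Meis1 and Ly86 were called higher, and Cd27, Ly6a and Tubb4b were called lower. Only 52.0% of all measured genes had relative differences of the same sign at both ages, so a pooled value can hide opposite values in the 2 ages.

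Of 19 genes of early lymphoid development 8 were measured, and Dntt, Blnk and Ighm were called higher and none lower. These are 37.5% of the 8, beside 9.75% of all measured genes called higher. The other measured members were Rag2 at 0.83 and, below the median of all genes, Lck at -0.17, Rhoh at -0.25, Cd27 at -0.48 and Cd79b at -0.75. The median relative difference of the 8 was 0.33, against 0 for all measured genes by construction. It was 1.01 at 14 months, 0.19 at 4 months and 0.40 without the highly correlated cells, where Cd27 was just past the call for lower. The calls differed by age. At 14 months 4 of the 8 were called higher and none lower, beside 14.1% higher and 6.88% lower of all measured genes. At 4 months 3 were called higher and 3 lower, beside 20.4% higher and 15.6% lower. The other 11 genes, among them Rag1, Ly6d, Vpreb1 and Cd79a, were in too few cells to be measured.

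Dntt encodes terminal deoxynucleotidyl transferase, which adds nucleotides at the joints of rearranging antigen receptor genes. It lies at chr19:41029275-41059525 (mm10, plus strand). Every Il7r-positive cell had it, 18 of 18, whereas 87 of 112 Il7r-negative cells did, or 77.7% (68.8 to 85.0%). Its level ran from 6.61 through a median of 1002.5 to 4719.6 TPM in positive cells, and from 0 through 253 to 4479.6 TPM in negative cells. The groups overlapped along almost the whole range, but no positive cell was without Dntt. The mean log2(TPM + 1) was 9.44 ± 2.19 in positive and 6.29 ± 4.03 in negative cells, a relative difference of 3.11. That relative difference was 2.91 at 14 months, 2.63 at 4 months, 3.53 in set 4, 2.52 in set 5 and 3.10 without the highly correlated cells. At 4 months the 5 positive cells had 6.61, 128, 962, 1889.5 and 2599.8 TPM, against a median of 201 TPM in the negative cells. Of these cells 3 lay above that median and 2 below it. Read from the side of Dntt, 18 of 105 cells with it were Il7r-positive, or 17.1% (10.5 to 25.7%). None of the 25 cells without it was, and a count of 0, taken to allow 3 cells, allows a share of up to 12%. The exact upper limit for 0 of 25 is 13.7%. Dntt was in 14 of 14 positive and 82 of 107 negative cells without the highly correlated ones.

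Blnk encodes an adaptor protein that links the B cell receptor to its downstream signalling. It lies at chr19:40928927-40994535 on the minus strand and is the next annotated gene to Dntt, with 34.74 kb and no annotated gene between them. It was present in 7 of 18 Il7r-positive cells, or 38.9% (17.3 to 64.3%), and in 10 of 112 Il7r-negative cells, or 8.93% (4.36 to 15.8%). The median was 0 TPM in both groups, and the highest values were 532 TPM in positive and 603 TPM in negative cells. The groups therefore differed in how many cells had Blnk, while the single highest value lay in a negative cell of 4 months. At 14 months the highest values were 403 TPM in positive and 164 TPM in negative cells. The relative difference was 2.30, with 1.65 at 14 months, 3.73 at 4 months and 3.10 without the highly correlated cells. At 4 months the positive cells had 0, 0, 16.9, 140 and 532 TPM. All 17 cells with Blnk also had Dntt, and none of them was among the highly correlated cells.

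The promoters of this neighbouring pair are shown because both genes differed in the same direction. Each stretch runs from 250 bases before to 50 bases after the RefSeq start, read along the gene's own strand in GRCm38.p6, at chr19:41029025-41029324 for Dntt and chr19:40994172-40994471 for Blnk. Capitals mark matches on either strand to CAGCTG or CAGGTG, which are core motifs bound by E proteins such as the product of Tcf3.
Dntt: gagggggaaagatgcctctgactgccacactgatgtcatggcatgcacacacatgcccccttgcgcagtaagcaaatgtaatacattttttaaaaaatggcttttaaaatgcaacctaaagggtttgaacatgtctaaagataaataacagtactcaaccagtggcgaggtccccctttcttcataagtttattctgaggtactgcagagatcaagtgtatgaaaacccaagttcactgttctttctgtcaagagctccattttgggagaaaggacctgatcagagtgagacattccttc
Blnk: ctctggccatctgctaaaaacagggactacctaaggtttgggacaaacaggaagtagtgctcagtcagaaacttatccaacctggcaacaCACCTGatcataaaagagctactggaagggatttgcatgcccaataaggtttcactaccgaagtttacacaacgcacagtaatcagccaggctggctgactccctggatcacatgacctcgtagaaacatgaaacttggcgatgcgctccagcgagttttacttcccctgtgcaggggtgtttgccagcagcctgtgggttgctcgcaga
The Blnk stretch holds 1 match, CACCTG, the reverse complement of CAGGTG. The Dntt stretch holds none, which says only that these letters are not in this window. Among 32851 RefSeq promoters of the same length, 20.2% hold CAGGTG and 16.3% hold CAGCTG on either strand.

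Ighm, the gene of the immunoglobulin mu heavy chain constant region, was widespread in both groups and more abundant in Il7r-positive cells. It was present in 16 of 18 positive and 88 of 112 negative cells. Levels ran from 0 through a median of 636 to 2157.5 TPM in positive cells and from 0 through 207 to 1570.9 TPM in negative cells. The relative difference was 1.87, and it was 1.93 at 14 months, 1.92 at 4 months and 1.88 without the highly correlated cells. Ighm was thus the most even of the 3 across ages. The 4-month positive cells had 0, 755, 919, 1320 and 1815 TPM.

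**Figure D1:**
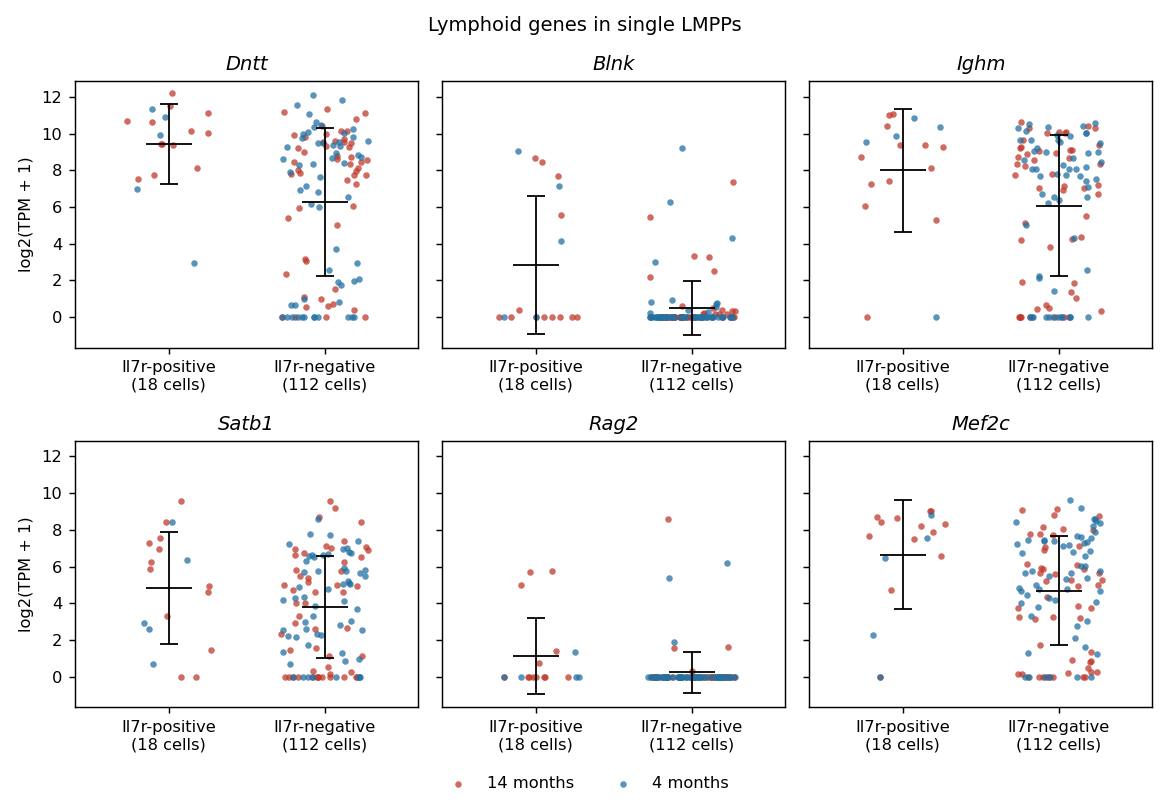
Level of 6 lymphoid genes in each kept LMPP, as log2(TPM + 1), for 18 Il7r-positive and 112 Il7r-negative cells. Points are cells, coloured by age and spread sideways at random, and bars are the mean ± SD over cells. Every positive cell had Dntt, Blnk was at 0 in most cells of both groups, and the groups overlapped for all 6 genes.

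The recombinase genes were rare. Rag2, whose product forms the V(D)J recombinase with that of Rag1, was present in 5 of 18 Il7r-positive cells, or 27.8% (9.69 to 53.5%), and in 6 of 112 Il7r-negative cells, or 5.36% (1.99 to 11.3%). Its highest levels were 52.7 TPM in positive and 389 TPM in negative cells, and its relative difference of 0.83 was not called. It was 0.39 without the highly correlated cells, where 3 of 14 positive and 5 of 107 negative cells had it. Rag1 was present in 1 positive cell, at 8.05 TPM, and in 3 negative cells, all of 4 months. Both genes overlap an annotated locus, B230118H07Rik, on the opposite strand for Rag2 and the same strand for Rag1, and since no source used here states strand use in counting, their values are uncertain. Ly6d, which marks B-biased lymphoid progenitors in mice, was present in 2 positive cells and no negative cell, with 714 TPM in the higher of the 2. Vpreb1, a surrogate light chain gene, was present in 1 positive and 1 negative cell.

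Lymphoid genes were also counted together within single cells. Dntt and Ighm were both present in 16 of 18 Il7r-positive cells, or 88.9% (65.3 to 98.6%), and in 74 of 112 Il7r-negative cells, or 66.1% (56.5 to 74.8%). Since every positive cell had Dntt, the joint count in positive cells is that of Ighm alone. At 14 months the counts were 12 of 13 positive and 35 of 53 negative cells. At 4 months they were 4 of 5 positive and 39 of 59 negative cells. At least 5 genes of the early lymphoid list were found in 10 of 18 positive and 37 of 112 negative cells. At 14 months this was 53.8% of positive and 20.8% of negative cells, whereas at 4 months it was 60% of positive and 44.1% of negative cells. The counting intervals of these shares overlapped between the groups at both ages. Both Dntt and Ighm were in 12 of 14 positive and 69 of 107 negative cells without the highly correlated ones, and at least 5 genes of the list in 9 of 14 positive and 32 of 107 negative cells.

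Of 28 lymphoid transcription factors 16 were measured, and Mef2c and Id2 were called higher and none lower. This is 12.5% of the list, close to the 9.75% of all measured genes. The median relative difference was 0.60, with 0.77 at 14 months, 0.42 at 4 months and 0.46 without the highly correlated cells. Mef2c, a factor that favours lymphoid over myeloid fate in mouse progenitors, ran from 0 through a median of 220 to 529 TPM in Il7r-positive cells and from 0 through 37.7 to 789.6 TPM in Il7r-negative cells. Its pooled relative difference was 1.91. It was 3.07 at 14 months, with 3.35 in set 4 and 3.03 in set 5, and -0.17 at 4 months, and it was 1.56 without the highly correlated cells. Id2, an inhibitor of E proteins, was present in 9 of 18 positive and 27 of 112 negative cells. Its relative difference was 1.44, with 1.99 at 14 months and -0.02 at 4 months, and 0.85 without the highly correlated cells, which is no longer called.

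Other factors lay just short of the call in both directions. Satb1, a chromatin organiser of lymphoid development, had a relative difference just under 1, with 1.31 at 14 months, 0.33 at 4 months and 0.55 without the highly correlated cells. Bcl11a, needed for B lineage development in mice, had 0.98, with 2.11 at 14 months, -0.61 at 4 months and 1.46 without the highly correlated cells. Notch1, the receptor that drives T lineage fate, also had 0.98, with 1.39 at 14 months, 0.60 at 4 months and 1.42 without the highly correlated cells. On the lower side Ikzf2, which encodes Helios, had -0.96, with -1.10 at 14 months, -1.11 at 4 months and -0.76 without the highly correlated cells. Further from the call, Ikzf1, which encodes Ikaros, had 0.64, with 0.90 at 14 months and 1.07 at 4 months, and Tcf3, which encodes the E2A proteins, had -0.49. Pax5, which fixes B cell identity, was at 0 in every kept cell. Ebf1, the other early B lineage factor, reached 1 TPM in no positive cell and 1 negative cell. Id3 was at 0 in every positive cell and present in 17 negative cells.

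Of 18 genes of interleukin-7 receptor signalling other than Il7r, 14 were measured, and 1 was called higher and none lower. This is 7.14% of the list, near the 9.75% of all measured genes. The median relative difference was 0.29, with 0.29 at 14 months, 0.01 at 4 months and 0.04 without the highly correlated cells. Summed over the list, TPM had a median of 494 in Il7r-positive cells (67.0 to 5336) and 501 in Il7r-negative cells (1.71 to 1564). Il2rg, the partner chain of the receptor, was present in 14 of 18 positive and 77 of 112 negative cells, with medians of 52.4 TPM in positive and 34.3 TPM in negative cells and a relative difference of 0.94, which was 1.37 and called higher without the highly correlated cells. Crlf2, whose product pairs with the Il7r chain in the receptor for thymic stromal lymphopoietin, was present in 5 positive and 17 negative cells, with a relative difference of 0.39. The receptor partners were thus present in both groups.

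Among the kinases, Jak1 had medians of 79.6 TPM in Il7r-positive and 48.9 TPM in Il7r-negative cells. Its relative difference was 0.80 over all cells, 0.06 without the highly correlated cells, 1.85 at 14 months and -1.55 at 4 months, where the positive cells had 0, 0, 29.3, 73.5 and 85.6 TPM against a median of 56.4 TPM in negative cells. Jak3 had a relative difference of -0.04, Stat5a 0.42 and Stat5b 0.38. Of the targets and brakes, Ptpn2, a phosphatase that acts on Jak1 and Jak3, was the called gene. It was present in 12 of 18 positive and 46 of 112 negative cells, and its relative difference was 1.03 over all cells but 5.98 in set 4 and -0.68 in set 5. Cish and Socs1, inhibitors induced by Stat5, reached 1 TPM in none of the positive cells while 10 negative cells had Cish and 1 had Socs1. Pim2, a survival kinase, was at 0 in every positive cell and present in 22 of 112 negative cells. The survival gene Bcl2 had a relative difference of 0.29 and Mcl1 one of -0.90. Neither was called.

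Granulocyte and monocyte genes went in both directions. Of 18 such genes 13 were measured, 1 (7.69%) was called higher and 2 (15.4%) lower, beside 9.75% and 5.36% of all measured genes, and the median relative difference was -0.05, or 0.01 without the highly correlated cells. Mpo, which encodes the granule enzyme myeloperoxidase, was the higher one, at chr11:87793581-87804413. It was present in 15 of 18 Il7r-positive cells, or 83.3% (58.6 to 96.4%), and 61 of 112 Il7r-negative cells, or 54.5% (44.8 to 63.9%). Its level ran from 0 through a median of 166 to 5902 TPM in positive cells and from 0 through 2.28 to 13569 TPM in negative cells. The highest Mpo values lay in negative cells, while more of the positive cells had the transcript. The relative difference was 2.35, with 1.99 at 14 months, 3.19 at 4 months and 2.46 without the highly correlated cells, but 0.68 in the 3 positive cells of set 4, which had 0, 30.6 and 145 TPM. An annotated antisense gene, Gm11505, overlaps Mpo, and their reads cannot be told apart without strand.

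Every Il7r-positive cell had Dntt, so all 15 with Mpo had both, and this count adds nothing to that of Mpo. Of the Il7r-negative cells 51 of 112 had both, or 45.5% (36.1 to 55.2%), where 77.7% had Dntt and 54.5% had Mpo. By age, 11 of 13 positive and 25 of 53 negative cells had both at 14 months, and 4 of 5 positive and 26 of 59 negative cells at 4 months. The counts were 11 of 14 positive and 46 of 107 negative cells without the highly correlated ones. Elane or Ctsg, further granule protease genes, were present in 9 of 18 positive and 27 of 112 negative cells, or 5 of 14 positive and 26 of 107 negative cells without the highly correlated ones, yet their relative differences were only 0.12 for Elane and 0.36 for Ctsg. Irf8, a factor of monocyte and dendritic cell fate that B lineage cells also use, had a relative difference of 0.85.

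Prtn3 and Csf3r were the lower ones. Prtn3, the proteinase 3 gene, was present in similar shares, 13 of 18 Il7r-positive and 87 of 112 Il7r-negative cells, but its median was 34.7 TPM in positive and 223 TPM in negative cells. Its relative difference was -1.83, with -2.43 at 14 months, -0.78 at 4 months and -2.06 without the highly correlated cells. Prtn3 overlaps Plppr3 on the other strand, and its value is uncertain. Csf3r, the receptor for granulocyte colony-stimulating factor, was present in 6 of 18 positive and 63 of 112 negative cells. Its relative difference was -1.63, with -1.13 at 14 months, -2.31 at 4 months and -1.22 without the highly correlated cells. Csf2ra, a receptor chain for granulocyte-macrophage colony-stimulating factor, reached 1 TPM in no positive cell and in 25 of 112 negative cells, or 22.3% (15.0 to 31.2%). The count of 0 in 18 cells, taken to allow 3 cells, allows a share of up to 16.7%, and the exact upper limit for 0 of 18 is 18.5%.

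Stem cell genes were mostly on the other side. Of 18 such genes 6 were measured, and Mecom was called lower and none higher, or 16.7% of the list beside 5.36% of all measured genes. The median relative difference was -0.49, with -0.51 at 14 months, 0.29 at 4 months and -0.32 without the highly correlated cells. Mecom, a transcription factor gene of stem cell maintenance at chr3:29951296-30548008, was present in 2 of 18 Il7r-positive cells, or 11.1% (1.38 to 34.7%), and 47 of 112 Il7r-negative cells, or 42.0% (32.7 to 51.7%). Its highest values were 47.1 TPM in positive and 624 TPM in negative cells. The relative difference was -1.44, with -0.98 at 14 months, -1.91 at 4 months and -1.73 without the highly correlated cells. Mllt3, another regulator of stem cell maintenance, reached 1 TPM in no positive cell and in 21 negative cells. Either of the pair was present in 2 of 18 positive and 59 of 112 negative cells, that is 11.1% (1.38 to 34.7%) of positive and 52.7% (43.0 to 62.2%) of negative cells. Without the highly correlated cells it was 1 of 14 positive and 57 of 107 negative cells.

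Other stem cell genes differed from Mecom in value. Hlf, a factor of the most immature cells, had a relative difference of -0.89 over all cells, -1.25 at 14 months, 0.93 at 4 months and -0.54 without the highly correlated cells. Meis1, which is expressed from stem cells to early progenitors, was present in 14 of 18 Il7r-positive and 80 of 112 Il7r-negative cells, with a relative difference of 0.70 over all cells and 2.09 without the highly correlated cells.

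**Figure D2:**
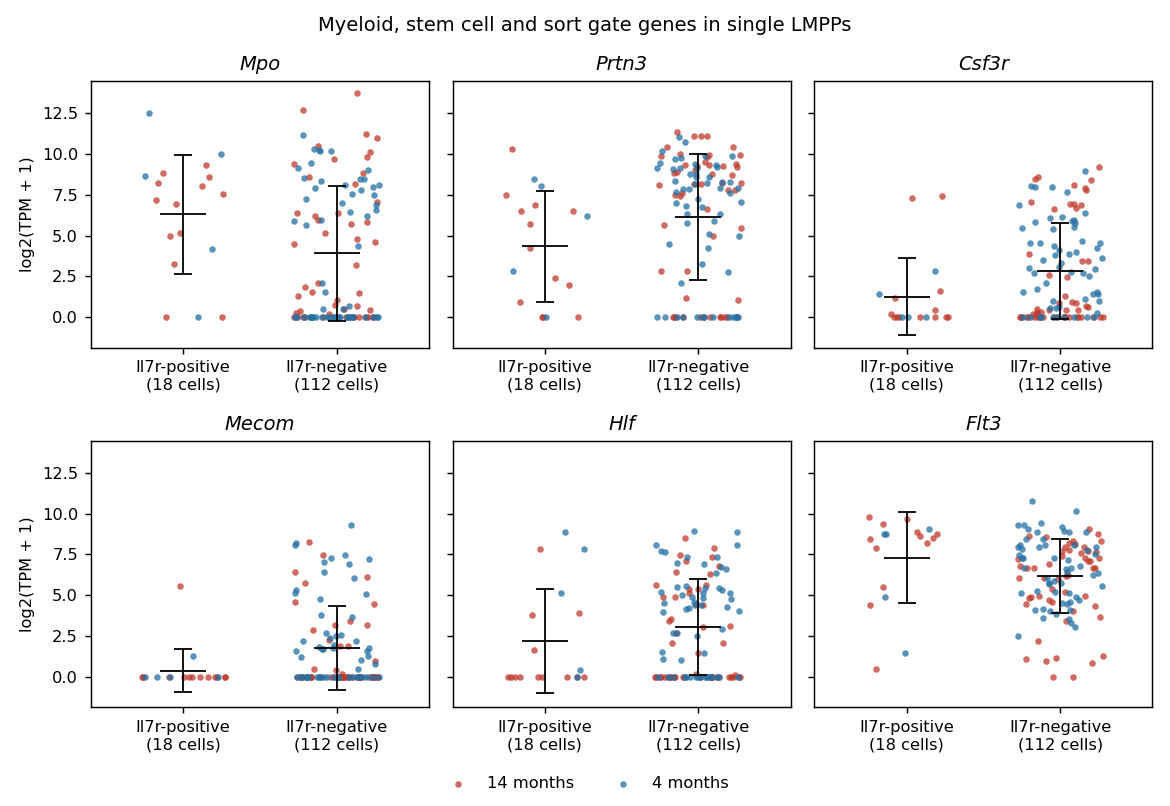
Level of 3 myeloid genes, 2 stem cell genes and Flt3 in each kept LMPP, as log2(TPM + 1), for 18 Il7r-positive and 112 Il7r-negative cells. Points are cells, coloured by age and spread sideways at random, and bars are the mean ± SD over cells. Mpo had more positive cells above 0, Prtn3 sat lower in positive cells, and Mecom was above 1 TPM in 2 positive cells.

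Genes of the sort gate were present in both groups. Flt3, whose protein was sorted as high, was present in 17 of 18 Il7r-positive and 108 of 112 Il7r-negative cells. Its medians were 379 TPM in positive and 98.6 TPM in negative cells. The relative difference was 1.08, with 1.65 at 14 months, 0.13 at 4 months and 0.65 without the highly correlated cells, where it was no longer called. Cd34 had a relative difference of -0.41 and Kit -0.50, which were -0.37 for Cd34 and 0.19 for Kit without the highly correlated cells. Ly6a, the gene for Sca-1, had 0.22 over all cells, but -1.07 without the highly correlated cells, where it was called lower. Of the genes sorted against, Cd3e, Ly6g and Slamf1, which encodes CD150, were at 0 in every kept cell, and Itgam was present in 11 positive and 50 negative cells at medians of 1.41 TPM in positive and 0.82 TPM in negative cells.

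Homing and adhesion genes included 2 called higher of 8 measured, 25.0% beside 9.75% of all measured genes, with none lower and a median relative difference of 0.18, or 0.68 without the highly correlated cells. These were Cd44, the hyaluronan receptor, and Itga4, a subunit of the integrin that binds vascular cell adhesion molecule. Cd44 had medians of 197 TPM in Il7r-positive and 31.1 TPM in Il7r-negative cells and a relative difference of 1.39, with 1.20 at 14 months, 2.97 at 4 months and 1.70 without the highly correlated cells. Itga4 had a relative difference of 1.32, with 1.69 at 14 months, 0.77 at 4 months and 1.14 without the highly correlated cells. It overlaps Cerkl on the opposite strand, so its value is uncertain as well. Cxcr4, the receptor that retains progenitors in marrow, had 0.71 over all cells and 1.14, which is called, without the highly correlated cells.

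Cell cycle genes had many members higher and none lower. Of 31 S phase genes, all measured, 13 were called higher, and the median relative difference was 0.63. Of 35 G2/M genes, also all measured, 14 were called higher and the median was 0.73. These shares, 13 of 31 and 14 of 35, stand beside 9.75% of all measured genes, but members of such lists vary together from cell to cell. The ages differed. The S phase median was 0.08 at 14 months and 1.25 at 4 months, whereas the G2/M median was 0.95 at 14 months and 0.05 at 4 months. Within 14 months the G2/M median was 1.48 in set 5 and -0.66 in set 4. Without the highly correlated cells the medians were 0.92 for S phase and 0.88 for G2/M, and Tubb4b, a tubulin gene of the G2/M list, was called lower, at -1.34.

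Single genes varied in how even they were across the ages. Gins1, a subunit of the replicative helicase complex, was present in 11 of 18 Il7r-positive and 26 of 112 Il7r-negative cells and had a relative difference of 2.39, with 2.76 at 14 months, 1.26 at 4 months and 1.64 without the highly correlated cells. Mcm3, of the helicase itself, had 1.92, with 1.88 at 14 months, 1.91 at 4 months and 2.38 without the highly correlated cells. Bub1, a spindle checkpoint kinase, had 2.42, with 2.39 at 14 months, 1.89 at 4 months and 2.10 without the highly correlated cells. Cenpa, the centromeric histone gene, had 1.48 over all cells, with 2.46 at 14 months, -1.08 at 4 months and 0.70, no longer called, without the highly correlated cells.

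Counted per cell, the positive group spread over the whole range. A median of 51.4% of the G2/M list was detected in Il7r-positive cells (5.71 to 97.1%), against 22.9% in Il7r-negative cells (0 to 100%). For the S phase list the medians were 61.3% in positive (19.4 to 93.5%) and 41.9% in negative cells (6.45 to 96.8%). At least 25% of the G2/M list was detected in 12 of 18 positive cells, or 66.7% (41.0 to 86.7%), and in 53 of 112 negative cells, or 47.3% (37.8 to 57.0%). These intervals overlap. The counts were 9 of 14 positive and 49 of 107 negative cells without the highly correlated ones.

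**Figure D3:**
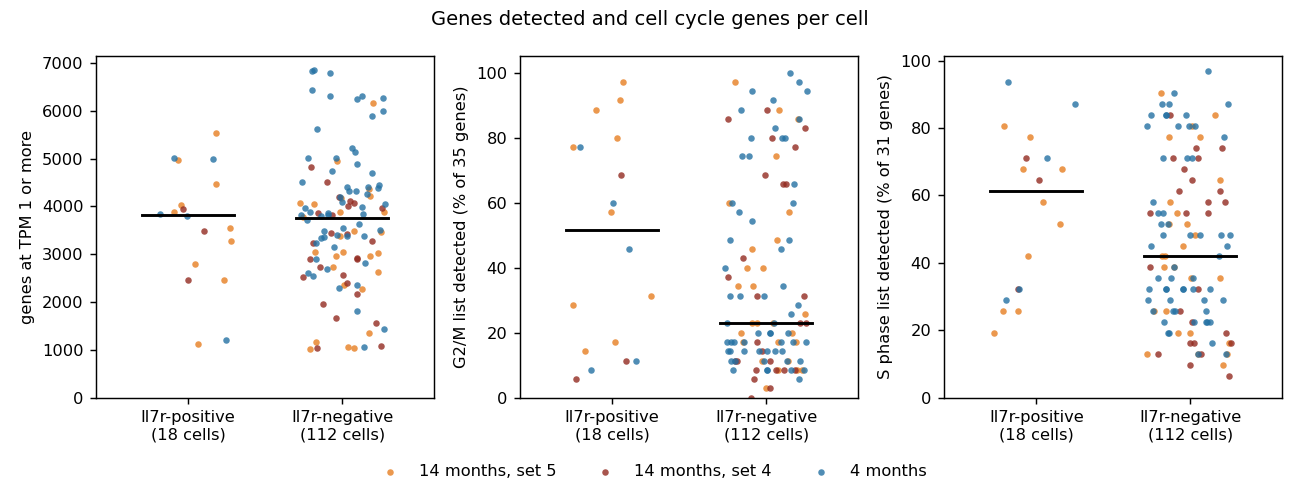
Genes at 1 TPM or more, share of 35 G2/M genes and share of 31 S phase genes detected in each of 18 Il7r-positive and 112 Il7r-negative cells, in percent for the lists. Points are cells, coloured by age and set, and bars are medians. Genes detected had close medians of 3820 in positive and 3749.5 in negative cells, and the G2/M share ran from 5.71 to 97.1% within the positive cells.

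Immediate early genes, which respond quickly to growth signals and stress, had 4 of 18 measured members called lower, 22.2% beside 5.36% of all measured genes, and none higher, with a median relative difference of -0.34, or -0.44 without the highly correlated cells. Atf3 was present in 2 of 18 Il7r-positive and 43 of 112 Il7r-negative cells, with a relative difference of -1.85. Jun had -1.29, Dusp1 -1.17 and Klf6 -1.05. All 4 stayed called lower without the highly correlated cells, between -1.81 for Atf3 and -1.01 for Jun. Of the negative cells with Atf3, 37 were of 4 months and 6 of 14 months, and positive cells were fewer at 4 months, so the pooled value sets groups of different age makeup against each other. Within 14 months the list median was 0.07, with 5 members called higher and none lower, so none of the 4 was called lower there. Within 4 months it was -0.61, with 2 members called higher and 5 lower. Of all measured genes 14.1% were called higher and 6.88% lower at 14 months, and 20.4% higher and 15.6% lower at 4 months. Fos had a relative difference of 0.20 and Egr1 0.88.

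In the other lists, none of 6 measured Bcl2 family genes and none of 5 measured dendritic cell markers was called. Of 7 measured interferon response genes 1, Oas1a, was called higher, or 14.3% beside 9.75% of all measured genes. Its relative difference was 1.68, and 1.54 without the highly correlated cells. The median of the 7 was -0.36 over all cells, -0.18 at 14 months, 0.68 at 4 months and 0.19 without the highly correlated cells. Tfrc, the transferrin receptor gene, was called higher at 1.88 over all cells, with 2.94 at 14 months, -1.37 at 4 months and 1.62 without the highly correlated cells. Cd27, a receptor carried by early progenitors and lymphocytes, had -0.48 over all cells, with 1.02 at 14 months, -2.92 at 4 months, and it was just past the call for lower without the highly correlated cells. Nkg7, a granule protein gene of cytotoxic cells, had 0.78, with 1.19 at 14 months, -1.69 at 4 months and -0.05 without the highly correlated cells.

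Markers of mature cells were rare in Il7r-positive cells. Of the B cell markers 9 were in the table, 6 were at 0 in every positive cell, and the defining genes Pax5 and Cd22 were at 0 in every kept cell. Their summed TPM had a median of 641 in positive (0 to 2157.5) and 316 in negative cells (0 to 1643), and Ighm reached the same highest value by itself in positive cells. Of 20 T, natural killer and innate lymphoid markers 16 were at 0 in every positive cell, Cd3d and Trac among them. The 7 at 0 in every negative cell, Gzmb among them, were at 0 in every kept cell. The summed medians were 118 TPM in positive (0 to 1638) and 109 TPM in negative cells (0 to 4136). Of 11 mature myeloid markers 6 were at 0 in every positive cell and 3 in every negative cell. Their summed medians were 5.33 TPM in positive and 2.11 TPM in negative cells. Of the erythroid and megakaryocyte markers, Klf1 and Pf4 were at 0 in every positive cell, and Gata1 and Epor in every kept cell. Of 6 mast cell and basophil markers 5 were at 0 in every kept cell. Of 6 stromal and endothelial markers 4 were at 0 in every positive cell and 2 in every negative cell.

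**Figure D4:**
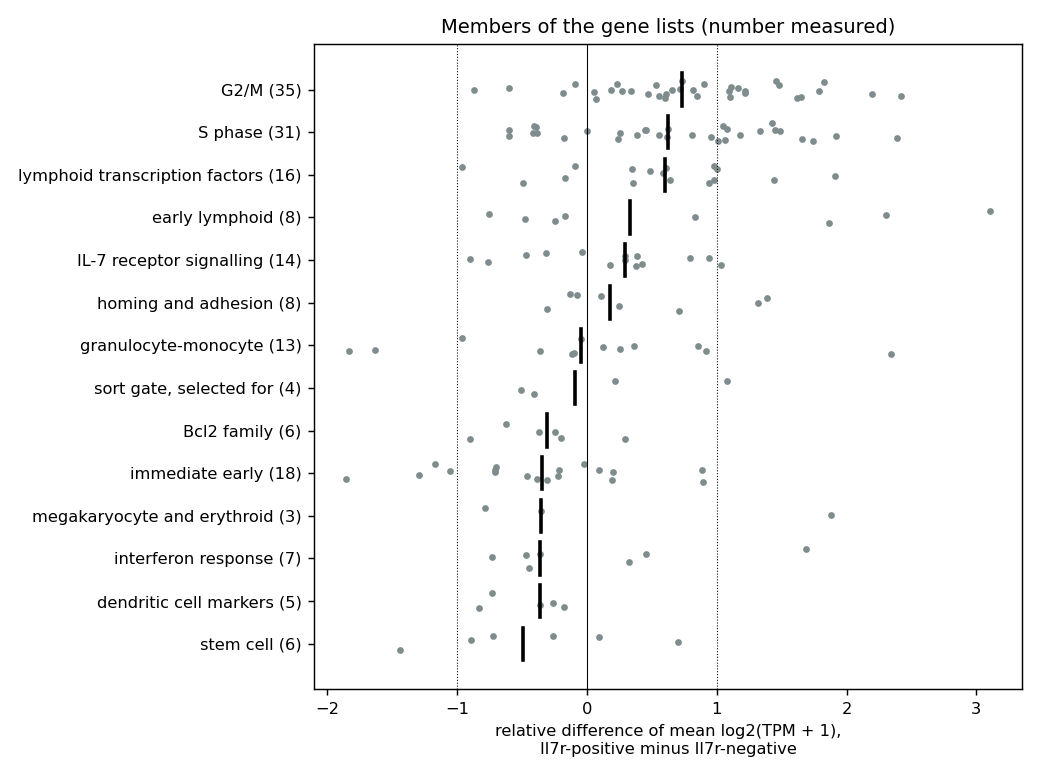
Relative difference of mean log2(TPM + 1), Il7r-positive minus Il7r-negative cells, for each measured member of 14 gene lists. Points are genes, thick bars are list medians, the solid line is the median of all 8930 measured genes and dotted lines mark the size of 1 used for calls. The G2/M, S phase and lymphoid transcription factor lists have the highest medians, 0.73, 0.63 and 0.60, and the stem cell list the lowest, -0.49.

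Outside the lists, the 12 highest relative differences among genes with the same sign at both ages were shared by several kinds of gene, with Dntt the only gene of the early lymphoid list among them. They were selected for the size of this difference, so their values are a description. Without the highly correlated cells their relative differences ran from 2.40 for Psmc6 to 4.35 for Il12a. Mrpl4, a mitochondrial ribosomal protein gene, was present in 15 of 18 Il7r-positive and 47 of 112 Il7r-negative cells, with medians of 201 TPM in positive and 0 TPM in negative cells and a relative difference of 3.83. The 4-month positive cells all had it, at 183, 218, 219.8, 379 and 1579 TPM, while the highest of 59 negative 4-month cells was 398 TPM. Bnip3l, which encodes a receptor for the removal of mitochondria, had medians of 401 TPM in positive and 11.0 TPM in negative cells and a relative difference of 3.83, with 4.83 at 14 months and 1.62 at 4 months. Haus3, of the augmin complex of the mitotic spindle, was present in 14 positive and 38 negative cells, with a relative difference of 3.70. It overlaps Poln and Gm25918, 1 of them on the same strand. Tmem263, at 3.44, overlaps Mterf2 on the other strand, so the values of Haus3 and Tmem263 are uncertain.

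Il12a encodes the p35 subunit of interleukins 12 and 35. It was present in 16 of 18 Il7r-positive and 66 of 112 Il7r-negative cells, with medians of 330.2 TPM in positive and 24.9 TPM in negative cells. Its relative difference was 3.13, with 3.20 at 14 months, 3.55 at 4 months and 4.35 without the highly correlated cells. The 4-month positive cells had 63.0, 266, 334, 451 and 802 TPM, all above the 4-month negative median of 56.8 TPM. Capza2, an actin capping protein gene, was present in every positive cell at 87.5 TPM or more and in 95 of 112 negative cells, with a relative difference of 2.95. Hnrnpdl, an RNA-binding protein gene, was also in every positive cell, with a relative difference of 2.90. Smndc1, a splicing factor gene, had 3.37, Snx17, an endosomal sorting gene, 3.07, Psmc6, a proteasome ATPase gene, 3.00, and Golt1b, a Golgi transport gene, 2.92. With the 4-month cells only, and the measured genes chosen anew in them, Snx17 had just 0.16 and Psmc6 0.03. The 4-month positive cells had Snx17 at 0, 0, 0, 4.86 and 267 TPM. Snx17 overlaps Eif2b4 and Zfp513 on the other strand, and its value is uncertain.

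The 12 lowest were led by Gnl2, a nucleolar GTPase gene, present in 5 of 18 Il7r-positive and 73 of 112 Il7r-negative cells, with a relative difference of -2.65. Cd63, a tetraspanin of late endosomes and granules, was present in 3 of 18 positive and 53 of 112 negative cells, with a relative difference of -2.54, and -2.55 at 14 months and -1.93 at 4 months. Ifitm1, an interferon-induced membrane protein gene, had medians of 61.8 TPM in positive and 389 TPM in negative cells and a relative difference of -2.17, which was -0.92 at 14 months and -4.70 at 4 months. Nr3c1, the glucocorticoid receptor gene, was present in 3 of 18 positive and 61 of 112 negative cells, with a relative difference of -2.01, and -1.64 at 14 months and -2.63 at 4 months. Cyba, a subunit of the phagocyte NADPH oxidase, had -1.89, with -1.14 at 14 months and -3.49 at 4 months. Mpp6, Bin2, Zfp638, Casp6, Clcc1, Tcirg1 and Rdx completed the set, between -2.01 for Mpp6 and -1.87 for Rdx. Without the highly correlated cells the 12 ran from -2.99 for Ifitm1 to -1.71 for Rdx. Gnl2 overlaps Dnali1, Clcc1 overlaps Gpsm2, Mpp6 overlaps Gsdme and Cyba overlaps Gm20388, each on the other strand, and these 4 values are uncertain. Of the list genes given above, Jak1, Il2rg, Stat5a, Irf8, Cd27, Bcl11a, Notch1, Ikzf1, Mecom, Meis1, Flt3, Cd34, Cd44 and Jun also overlap another annotated gene, and the same uncertainty holds for them.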

How the data were processed

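The authors deposited a single table of TPM values (transcript abundance corrected for length and scaled to a fixed total), with 38924 genes and 168 columns, each column a cell. The submitters' processing notes name the aligner Bowtie2 (2.2.0), the quantifier RSEM (1.2.12) and the build mm10. Since the total is fixed, depth cannot be read from the values, and genes detected per cell are given in its place. There are 84 columns for 14 months, where the labels name 83 cells, and 84 for 4 months, where they name 84. Columns are matched to an age and to no single labelled cell. Every column was used.

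From these values, cells with at least 1000 genes at 1 TPM were kept and divided at 1 TPM of Il7r. Measured genes are those whose share of cells at 1 TPM or more, averaged over both groups, was at least 10%. The difference of mean log2(TPM + 1), with a pseudocount of 1, was taken relative to the median of the measured genes, and it understates the change of low genes. No animal is named, so no p-value or standard error was computed. Shares have exact Clopper-Pearson 95% intervals for counting error only. The division may also place cells whose Il7r was missed in the negative group, and no doublet caller was run. The difference step was checked on simulated data.

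Named genes are the 12 highest and 12 lowest differences among genes in at least 30% of the cells of either group, with the same sign at both ages, leaving out predicted genes, mitochondrial transcripts, pseudogenes and small RNAs. To these were added every member of the interleukin-7 signalling, lymphoid, granulocyte-monocyte and sort gate lists, and the 2 highest and 2 lowest members of the others. Other list members in the text, such as Mcm3, Cenpa, Fos and Meis1, were chosen after their values were seen. The division, the 20 gene lists and the rules were chosen with earlier results of these data known, so a pattern seen in those results gains no independent support here. The gene Ighd of the B cell list is not analysed here, and some other genes are not reported and were left out of the lists. Gene symbols matched 37607 of the 38924 identifiers. Gene positions and overlaps are from the GENCODE annotation of mm10, and promoters from RefSeq on GRCm38.p6, the same build, with both genes looked for matched. Alternatives were other pseudocounts, filters, normalizations, thresholds, ages or sets alone, matched negative cells and medians over cells. Chosen after seeing the data were leaving out cells of over 50% mitochondrial TPM, set 4, and the highly correlated cells. The work used pandas 2.3.3, numpy 2.4.6, matplotlib 3.10.9 and scipy 1.17.1 under Python 3.11.15.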

Additional observations from a re-analysis of the deposited data

Results flagged for a closer look

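In each of 4 named genes the relative difference, Il7r-positive minus Il7r-negative on the log2(TPM + 1) scale, was past 1 in size in opposite directions at the 2 ages. The difference between the ages was not tested, and only 5 positive cells were of 4 months. Cd27 had 1.02 at 14 months and -2.92 at 4 months. Jak1 had 1.85 at 14 months and -1.55 at 4 months. Nkg7 had 1.19 at 14 months and -1.69 at 4 months. Tfrc had 2.94 at 14 months and -1.37 at 4 months. Over all measured genes, 130 of the 1825 called higher at 4 months were called lower at 14 months, or 7.12%. Of the 1394 called lower at 4 months, 203 were called higher at 14 months, or 14.6%.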

How the results depend on the processing

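Of 44 named genes with a relative difference of 1 or more in size, 32 kept their sign in every alternative in which they were measured, 7 were at 0 with the median over cells and kept their sign in the others, and 5 had the opposite sign in at least 1. There were 20 alternatives, 16 of them planned, and 4 of the 44 genes were not measured in every one. Of the 24 genes named as highest or lowest 20 kept their sign and 4 were at 0 with the median over cells, and 17 stayed at 1 or more in size in every alternative other than the median over cells. These 24, which are among the 44, were selected for a large pooled difference and the same sign at both ages. Their kept signs were therefore largely fixed by that choice and are no support. Settings with fewer cells choose the measured genes and their median anew in those cells, so their values differ from those by age or set over the 8930 genes above, where Flt3 (0.13) and G2/M (0.05) were above 0 at 4 months and 1825 genes were called higher and 1394 lower. With the 4-month cells only, chosen anew, the signs turned for gene Flt3 (-0.065), gene Id2 (-0.22), gene Mef2c (-0.37), gene Tfrc (-1.57) and the median of list G2/M (-0.14). With set 5 only, gene Ptpn2 turned to -0.75. The number of genes higher in Il7r-positive cells, 871 in the reported setting, was 1574 with a pseudocount of 0.1, 247 with a pseudocount of 10, 552 for genes in at least 30% of cells, 1618 with the 4-month cells only and 1471 with set 5 only. The number of genes lower in Il7r-positive cells, 479 in the reported setting, was 1267, 55, 1866 and 999 with the pseudocounts of 0.1 and 10, the 4-month cells only and set 5 only. The cause was not tested, but the 4-month and set 5 settings have fewer cells. The share of 14-month cells with Il7r ran from 15.8 to 21.8% over its alternatives and the share of 4-month cells from 4.69 to 7.81%. Matching chose 51 negative cells, 3 short of the intended number, because it used all 27 negative cells of set 5. No paired analysis was possible because no test was made and replicate numbers only name cells. Unknown depth limits any reading of a gene as absent from a cell.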

Other observations

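Small RNA genes took a lower highest share of TPM in Il7r-positive cells at both ages, in groups of unequal size. Since TPM has a fixed total, this share lowers the values of all other genes, and its part in the gene differences was not tested. Their share was at most 1.09% in the 13 Il7r-positive cells and at most 4.23% in the 53 Il7r-negative cells of 14 months. At 4 months the highest shares were 4.36% in the 5 positive and 32.0% in the 59 negative cells.

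Il7r-positive cells were 13.8% of all kept cells (exact Clopper-Pearson 95% interval 8.42 to 21.0%). They were a larger share of the few cells with Blnk or Rag2, but not of those with other B cell genes. Of 17 cells with both Dntt and Blnk 7 were Il7r-positive, or 41.2% (18.4 to 67.1%), and of 11 cells with Rag2 5 were, or 45.5% (16.7 to 76.6%). Both intervals overlap that of all kept cells. Without the highly correlated cells 3 of 8 cells with Rag2 were positive, or 37.5% (8.52 to 75.5%). At least 1 of the B cell genes Ms4a1, Pax5, Ebf1 and Cd79a was present in none of the 18 Il7r-positive cells and in 5 of 112 Il7r-negative cells, all of 4 months. The count of 0, taken to allow 3 cells, leaves a share of up to 16.7%, and its exact upper limit is 18.5%.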
